A study of Rattus norvegicus with 4 samples.

Results

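The COP9 signalosome is a protein complex that clips the ubiquitin-like protein NEDD8 from cullins, the scaffolds of a large class of ubiquitin ligases. Its subunits were followed here at the level of ribosome footprints, the messenger RNA fragments that ribosomes shield from digestion, in rat myocardial cells with and without knockdown of the translation initiation factor subunit eIF3m. The members were the rows of 9 genes taken by symbol, Gps1, Cops2, Cops3, Cops4, Cops5, Cops6, Cops7a, Cops7b and Cops8, out of 31038 rows in each library. All 9 had a row, and all 9 passed the filter on low counts that left 12672 genes for testing.

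The cells were cultured rat myocardial cells labelled NRVM, a name usually read as neonatal rat ventricular myocytes, although the protocol in the labels derives them from embryonic heart. The siNT group received a control siRNA and the si3m group an siRNA against eIF3m, with 2 libraries each. Both groups were grown in serum-supplemented DMEM and given cycloheximide to stall ribosomes before lysis, and fractions holding monosomes and polysomes went into a small RNA library kit. The time after transfection is not in the labels. Whether the 2 libraries of a group stand for 2 cultures is not stated either, and p-values then reflect the spread between these libraries alone, possibly a technical one. RNA-seq was not analysed here, and footprint counts cannot separate a change in messenger RNA from a change in its translation.

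Total counts were 3924434 and 3835750 in siNT and 8687598 and 6726969 in si3m, so depth differed with group and cannot be told apart from it. Eif3m itself fell 3.01-fold (log2 fold change -1.59, SE 0.11, edgeR adjusted p = 3.41e-08). Among 16 cardiomyocyte markers each library had 7 to 11 with no more than 6 counts, and Tnni3, Nppa and Myl7 were at 0 in all 4. Their summed level, mostly Atp2a2, as CPM (here with every library scaled to an equal total) was 954 to 993 in siNT and 587 to 599 in si3m. Atp2a2 carried that difference (log2 -0.77): the other 15 summed to 134 and 140 in siNT and to 118 and 137 in si3m. Among these 15, Tnnt2 rose 2.38-fold (edgeR adjusted p = 0.00417), while Pln fell 2.95-fold (0.00149) and Ttn 1.56-fold (0.0103). Tnnc1 did not pass (0.153), and the others were not tested. The 12 fibroblast markers summed to 12531 to 12570 in siNT and to 16361 to 16635 in si3m, with Col1a1, Col1a2 and Fn1 the largest. Of 9 tested, 8 were higher, beside 14.0% of all tested genes. Dcn, among these 8, had 0 counts in both siNT libraries and 24 and 20 in si3m. It thus entered the test only through the group where it was high. Fn1 was lower (log2 -0.16, edgeR adjusted p = 2.62e-04). Tcf21 was at 0 in all 4 libraries, and Pdgfra had 4 to 18 counts. The 4 smooth muscle markers summed to 3188 to 3215 CPM in siNT and to 3534 to 3540 in si3m. For 7 endothelial markers the sums were 6.63 to 8.86 in siNT and 6.91 to 12.2 in si3m. For 6 leukocyte markers they were 32.1 to 36.5 in siNT and 15.2 to 15.4 in si3m. In bulk samples fewer cells of a type and less RNA per cell cannot be told apart, and the part of cell makeup in the results below was not tested.

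The signalosome, the lid of the 26S proteasome and the core of eIF3 are built on the same plan, a ring of subunits with PCI domains joined to a pair with MPN domains. CSN5, coded by Cops5, is the MPN subunit that holds the zinc-dependent protease site, and it works only inside the assembled complex. By removing NEDD8 the complex turns cullin-RING ligases off and lets them exchange their substrate receptors. In the mouse heart, loss of CSN8 from cardiomyocytes impairs protein degradation and leads to heart failure.

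The subunits did not move as a block. Cops6 and Cops2 rose, Cops3 and Cops7b fell, and the other 5 did not pass the test. Thus 2 of 9 members were higher and 2 lower, against 14.0% of all tested genes higher and 13.9% lower (27.8% either way). The si3m and siNT libraries did not overlap for 7 of the 9 members, 4 with si3m higher and 3 with si3m lower, beside 63.9% of all tested genes (32.6% and 31.3%). The median log2 fold change of the members was 0.20, and that of all tested genes 0.02. The test throughout was edgeR's quasi-likelihood test on the deposited counts, with Benjamini-Hochberg adjustment over all tested genes and a threshold of 0.05. CPM of single genes are scaled by TMM, edgeR's trimmed mean method, which centres fold changes, so every change is relative to the other footprints. With scaling by total count the split over all genes moved from 1771 higher and 1757 lower to 1428 and 2217, while the same 4 members were called in the same directions. With counts thinned to the smallest library total these 4 were called again, and Cops5 in addition.

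**Figure D1:**
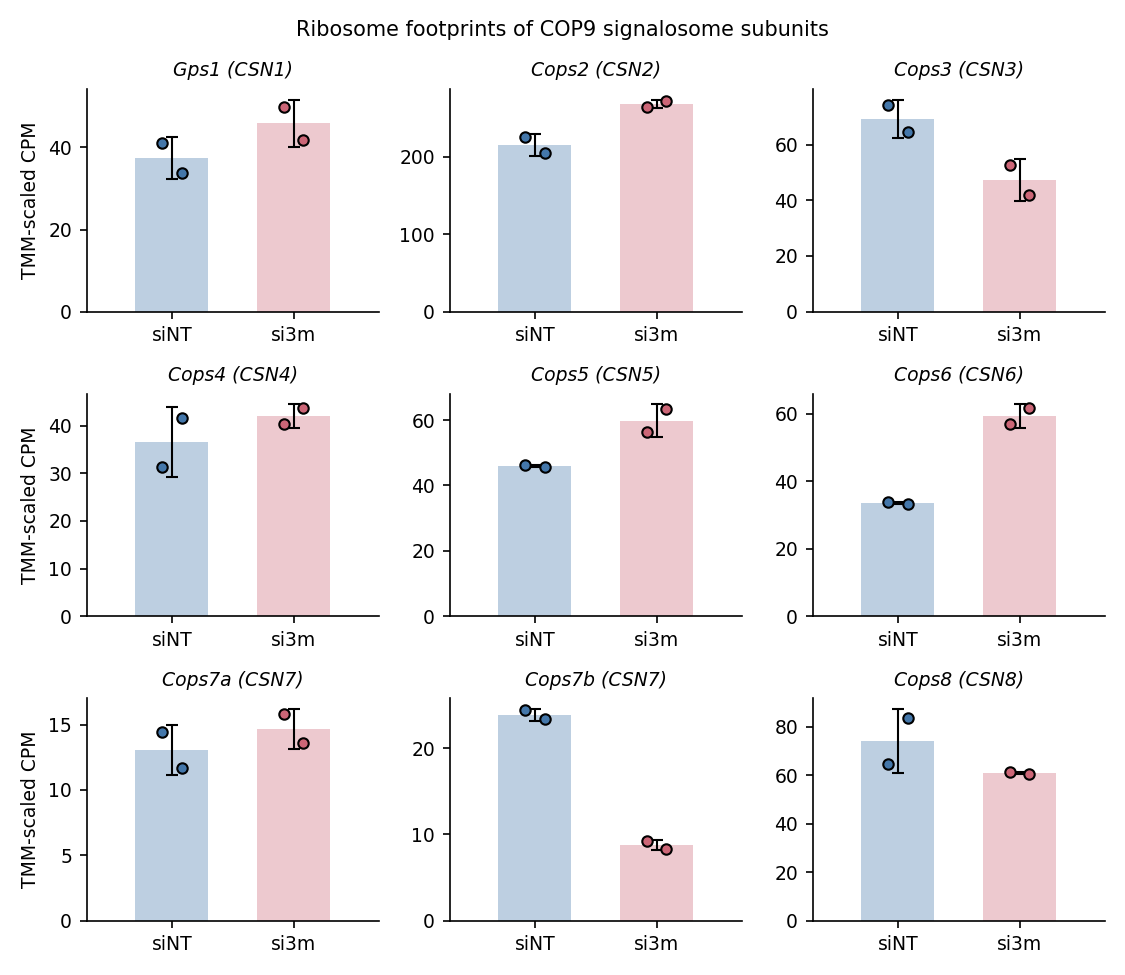
Footprint level of each subunit gene in TMM-scaled CPM, with a point for each library, bars at the group mean and error bars of 1 SD (n = 2 per group); each panel has its own vertical axis from 0. The si3m points lie apart from the siNT points for 7 genes, and overlap for Cops4 and Cops7a.

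**Figure D2:**
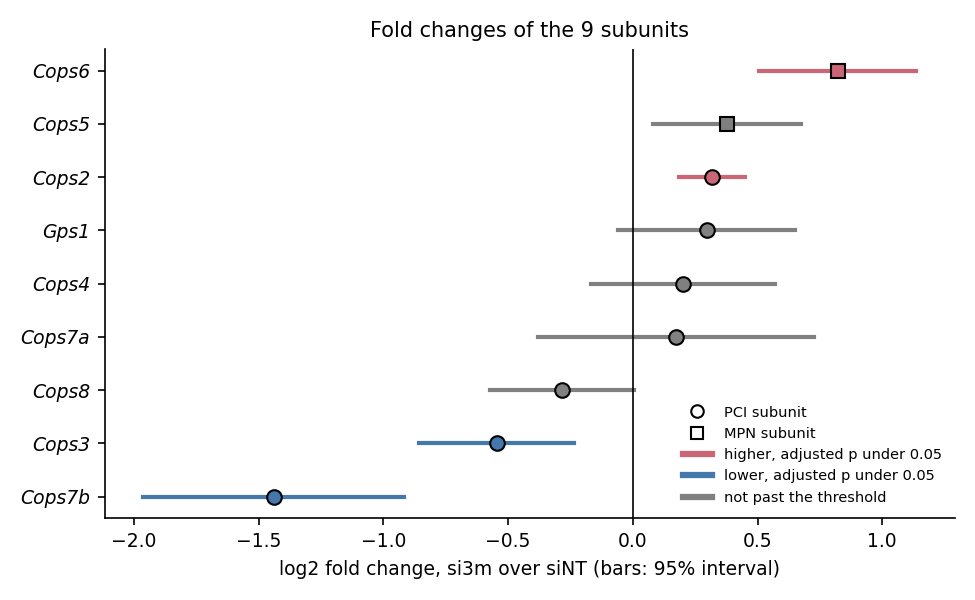
Log2 fold change of each subunit gene, si3m over siNT, with its 95% interval from the edgeR fit; circles are PCI subunits and squares MPN subunits. The values run from -1.44 for Cops7b to 0.82 for Cops6, and the intervals of Gps1, Cops4, Cops7a and Cops8 include 0.

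Vertebrates have a pair of genes for the subunit CSN7, Cops7a and Cops7b, whose products take the same place in the complex as alternatives. In this pair footprints fell for Cops7b, and no change of Cops7a was detected. Cops7b was at 24.4 and 23.4 CPM in siNT and at 9.19 and 8.35 CPM in si3m, from deposited counts of 98, 92, 78 and 54. Both si3m libraries lay far below both siNT libraries, and depth differed with group. Cops7b fell 2.71-fold (log2 fold change -1.44, SE 0.25, edgeR adjusted p = 3.77e-04), which placed it at percentile 1.67 of the fold changes of all tested genes. Cops7a was at 14.4 and 11.7 CPM in siNT and at 15.8 and 13.6 CPM in si3m, with overlapping groups. Its log2 fold change of 0.17 did not pass (95% interval -0.38 to 0.73, edgeR adjusted p = 0.670).

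Cops7a thus held 37.2% and 33.3% of the footprints of the pair in siNT and 63.2% and 62.0% in si3m. Counted in fragments, the exact Clopper-Pearson 95% intervals of these shares were 26.5% to 48.9%, 22.4% to 45.7%, 53.3% to 72.4% and 49.7% to 73.2%, and they cover counting error only. The ratio of Cops7a to Cops7b does not depend on how libraries are scaled. On the log2 scale the siNT libraries averaged -0.88 (SD 0.17, n = 2) and the si3m libraries 0.74 (SD 0.05, n = 2), a difference of 1.62 or 3.08-fold. An exact two-sided permutation test over the libraries gave p = 0.333, the smallest that 2 against 2 allows. The pair summed to 36.9 ± 2.67 CPM (SD, n = 2) in siNT and to 23.5 ± 2.12 CPM (SD, n = 2) in si3m, with no test made. Since lengths of the transcripts were not used, only the change of the share between groups can be read, not which gene is the more translated. The labels do not say how reads with several matches were treated, and RefSeq lists 2 pseudogenes of Cops7b, neither of which has a row of its own. In GRCr8 Cops7b also overlaps a long non-coding RNA, and Cops7a overlaps a long non-coding and a small nuclear RNA.

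**Figure D3:**
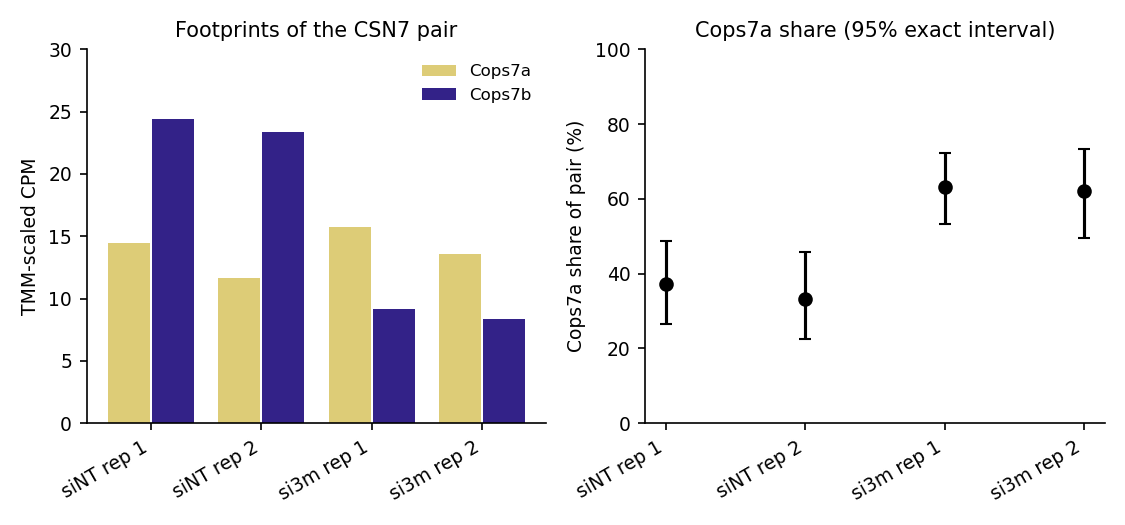
Left, TMM-scaled CPM of Cops7a and Cops7b in each of the 4 libraries; right, the share of Cops7a in the footprints of the pair, with exact 95% intervals for counting error. The bars of Cops7b are shorter in both si3m libraries than in both siNT libraries, and those of Cops7a overlap between groups.

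The sequence before the transcription start also differs between these paralogs, and it is shown because they are the pair whose footprints parted. The 250 bases before the start (GRCr8, RefSeq) lie at chr9:94686064-94686313 on the plus strand for Cops7b, and at chr4:159460244-159460493 on the minus strand for the farther upstream of 2 starts that the table lists for Cops7a. Capitals mark CpG dinucleotides, the sites of vertebrate DNA methylation.
Cops7b: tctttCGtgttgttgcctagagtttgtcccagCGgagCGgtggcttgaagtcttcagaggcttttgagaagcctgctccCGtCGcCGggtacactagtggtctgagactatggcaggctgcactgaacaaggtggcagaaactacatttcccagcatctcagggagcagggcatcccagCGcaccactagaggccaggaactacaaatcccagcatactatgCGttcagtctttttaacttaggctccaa
Cops7a: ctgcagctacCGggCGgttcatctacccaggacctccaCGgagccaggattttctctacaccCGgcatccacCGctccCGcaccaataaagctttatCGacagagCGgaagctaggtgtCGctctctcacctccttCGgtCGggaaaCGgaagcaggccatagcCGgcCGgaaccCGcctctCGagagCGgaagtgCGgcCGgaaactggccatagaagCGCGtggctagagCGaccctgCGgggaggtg
Cops7b has 8 CpG dinucleotides and 52.8% G and C in this window and Cops7a 23 and 62.8%, against medians of 5 and 51.2% over the 33469 windows of this length in the table. The window before the other Cops7a start has 29 and 67.2%. Windows of the other members in the table have 11 to 34 CpG dinucleotides. This is a description of letters only, and neither methylation nor transcription was measured. Of the 9 members, 7 are in the table, all but Cops5 and Cops6.

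The MPN subunits form a pair inside the complex, and the gene of the inactive partner rose. Cops6 codes for CSN6, which lacks the catalytic residues and packs against CSN5. It was at 33.9 and 33.3 CPM in siNT and at 56.9 and 61.9 CPM in si3m. The replicates were close together and the groups far apart. From a mean of 33.6 ± 0.403 (SD, n = 2) to one of 59.4 ± 3.53 CPM (SD, n = 2) Cops6 rose 1.77-fold. The log2 fold change was 0.82 (SE 0.15, edgeR adjusted p = 6.11e-04), and it passed in each of 14 alternative settings, with log2 values between 0.74 and 0.89.

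Cops5, the gene of the protease subunit, was at 46.3 and 45.7 CPM in siNT and at 56.3 and 63.4 CPM in si3m. The groups did not overlap, yet the log2 fold change of 0.38 (SE 0.14) just missed the threshold (edgeR adjusted p = 0.0560). It passed in 5 of 14 alternative settings, among them upper quartile scaling (adjusted p = 0.0461) and no low-count filter (0.0437), and did not pass when any library was left out (0.0782 to 0.346). In GRCr8 the gene Cops5 overlaps Cspp1, which has its own row, and without the strand setting reads of the overlap cannot be assigned with certainty.

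Among the PCI subunits, Cops2 codes for CSN2, the arm that grips the cullin and its RING partner. It had the highest counts of the members, 808 to 2244, and hence the smallest SE. Cops2 was at 225 and 205 CPM in siNT and at 264 and 272 CPM in si3m. The step is small, but both si3m values lie above both siNT values. Cops2 rose 1.25-fold (log2 fold change 0.32, SE 0.063, edgeR adjusted p = 0.00130) and kept its call in all 14 alternatives (adjusted p at most 0.0114).

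Cops3 codes for CSN3, another subunit of the PCI ring. It was at 74.2 and 64.5 CPM in siNT and at 52.5 and 42.1 CPM in si3m, with both si3m libraries lower. Cops3 fell 1.46-fold (log2 fold change -0.55, SE 0.15, edgeR adjusted p = 0.0105). The call rested on si3m replicate 2, since without that library the log2 value was -0.39 and the adjusted p 0.124. Cops3 spans a pseudogene in GRCr8 that has no row in the files.

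The remaining PCI subunits stayed short of the threshold. Cops8, the gene of the small subunit CSN8 whose loss harms the mouse heart, was at 64.7 and 83.6 CPM in siNT and at 61.2 and 60.5 CPM in si3m. Its siNT libraries differed more from each other than the lower of them did from si3m. The log2 fold change was -0.28 (95% interval -0.57 to 0.003, edgeR adjusted p = 0.135). Without siNT replicate 1 it was -0.45 and passed (adjusted p = 0.0114), and without siNT replicate 2 it was -0.08 (0.749). RefSeq lists 3 pseudogenes of Cops8, none with a row.

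Gps1, which codes for CSN1, was at 41.1 and 33.8 CPM in siNT and at 49.9 and 41.8 CPM in si3m. The groups came within 1 CPM of each other without overlapping (log2 fold change 0.30, 95% interval -0.06 to 0.65, edgeR adjusted p = 0.211). Cops4, whose product CSN4 senses an engaged ligase together with CSN6, was at 31.4 and 41.7 CPM in siNT and at 40.3 and 43.8 CPM in si3m. Its groups overlapped (log2 fold change 0.20, 95% interval -0.17 to 0.57, edgeR adjusted p = 0.424). These intervals do not show that the genes were unchanged, since they reach up to 0.65 and 0.57.

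Summed over the 9 genes, footprints came to 555 and 543 CPM in siNT and to 606 and 607 CPM in si3m, 1.11 times as much. The sum is a description without a test, and Cops2 footprints are 37.8% to 44.8% of it, a share of counts that also depends on transcript length. Within that sum the share of Cops3 went from 13.4% and 11.9% in siNT to 8.66% and 6.93% in si3m, and the share of Cops6 from 6.10% and 6.13% to 9.38% and 10.2%. Replicates of the members differed by 0.02 to 0.41 on the log2 scale in siNT, Cops4 the most, and by 0.02 to 0.32 in si3m, Cops3 the most. The median over all tested genes was 0.23 in siNT and 0.16 in si3m. Levels per length are not compared between genes, since transcript lengths were not used here.

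**Figure D4:**
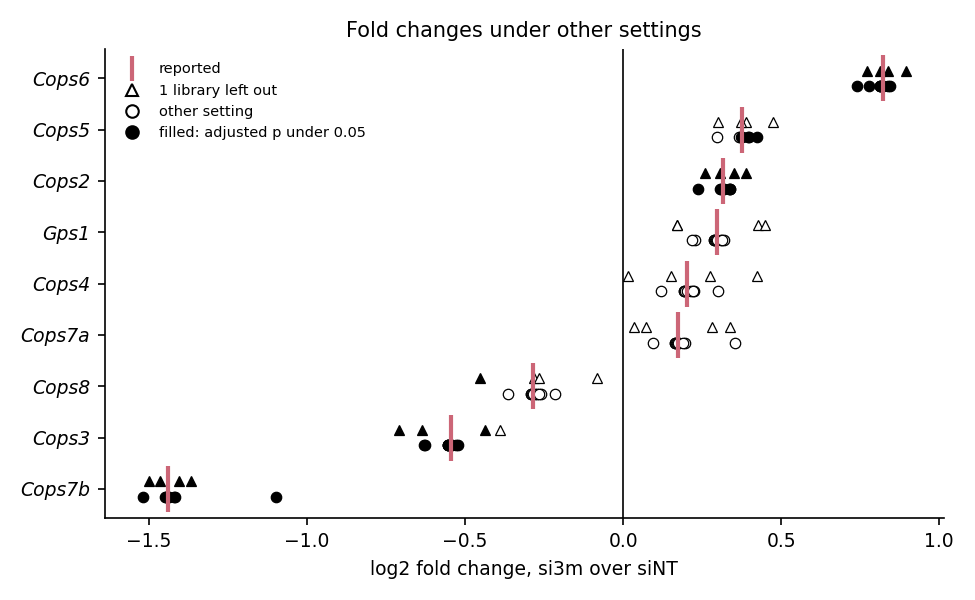
Log2 fold change of each subunit gene in the reported fit (vertical bars), with 1 library left out (triangles) and under the other settings (circles); filled symbols passed at an adjusted p under 0.05. The symbols of each gene stay on its own side of 0, and those of Cops2, Cops6 and Cops7b are all filled.

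Cops9, the gene of a small acidic subunit described later than the others that binds near CSN3, CSN5 and CSN6, was not among the members. It was at 36.3 and 36.1 CPM in siNT and at 66.2 and 55.4 CPM in si3m. Cops9 rose 1.68-fold (log2 fold change 0.75, SE 0.15, edgeR adjusted p = 0.00150), beside 0.82 for Cops6. Of 11 partners of the signalosome, Cops9 included, 3 were higher and 2 lower (median log2 0.42). This was 45.5% called, beside 27.8% of all tested genes. The others that rose were Csnk2b and Csnk2a1, which code for the regulatory subunit and a catalytic subunit of casein kinase 2, a kinase found with the complex, with log2 values of 1.03 and 0.42. Csnk2a2, the alternative catalytic subunit, fell (log2 -0.64), as did Rfwd2, the gene of the ubiquitin ligase COP1 (log2 -0.22). Rfwd2 lost its call without si3m replicate 2 (adjusted p = 0.121) or without siNT replicate 1 (0.122).

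A mixed list of NEDD8 pathway genes, taken whole, was called at the rate of all tested genes. Of 18 tested genes 3 were higher and 2 lower, 27.8% beside 27.8% of all tested genes (median log2 0.02). The genes called all help to attach NEDD8, the reaction opposite to that of the signalosome. Others that help to attach it, such as Nae1 and Rbx1, were not called. The rest of the list, Senp8, Uchl3, Cand1, Cand2, Nub1 and Glmn, does not attach it. None of these was called, with Cand1 at an edgeR adjusted p of 0.0787. This split was made after the values were seen and was not tested. The rest holds too few genes to be set apart from the 27.8% of all tested genes. Ube2m, which codes for the main NEDD8-conjugating enzyme, rose 1.85-fold (edgeR adjusted p = 0.00134, log2 0.89, SE 0.18). Rnf7, coding for the RING partner of Cul5, rose 1.78-fold (log2 0.84, SE 0.21, edgeR adjusted p = 0.00721). Dcun1d1, a neddylation co-factor, rose by 0.29 on the log2 scale. Uba3, the catalytic subunit of the NEDD8-activating enzyme, fell 1.35-fold (log2 -0.44, SE 0.054), and Ube2f, the conjugating enzyme that works with Rnf7, 1.41-fold (log2 -0.50, SE 0.13). Nedd8 itself was at 21.4 and 13.2 CPM in siNT and at 24.5 and 23.2 CPM in si3m and did not pass (edgeR adjusted p = 0.183). The call of Rnf7 was lost when si3m replicate 1 was left out (adjusted p = 0.0741), and that of Ube2f when si3m replicate 2 was (0.0983).

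The cullins are the substrates of the signalosome. Of 8 listed, 7 had a row and 6 were tested, of which 3 were lower and none higher (median log2 -0.14). Over all tested genes 13.9% were lower and 14.0% higher. At an unadjusted edgeR p under 0.05 the number higher was 0, and in DESeq2 it was 0. Cul3 fell 1.55-fold (edgeR adjusted p = 2.75e-07, log2 -0.64, SE 0.054), from a mean of 776 CPM (SD 44.2, n = 2) to one of 499 CPM (SD 18.2, n = 2). Cul5 (log2 -0.24) and Cul2 (log2 -0.29) also fell, and each lost its call under some alternatives. Cul5 lost it without si3m replicate 2 (adjusted p = 0.166) or without siNT replicate 2 (0.0550), and Cul2 without si3m replicate 1 (0.277), without siNT replicate 2 (0.0850) or with counts thinned to the smallest library total (0.0617). Of 25 tested adaptors and substrate receptors of cullin ligases, 3 were higher and 6 lower (median log2 -0.10). This was 36% called, beside 27.8% of all tested genes. Spop, a receptor of Cul3 ligases, fell 1.82-fold (log2 -0.87), and Ddb1, the adaptor of Cul4 ligases, 1.36-fold (log2 -0.44). Tceb2, which codes for the adaptor elongin B, rose 2.40-fold (log2 1.27).

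The other complexes of the same build also held genes called in both directions. In the proteasome lid 2 of 9 tested subunits were higher and 2 lower (median log2 0.11), the same counts as among the signalosome members. This was 44.4% called, beside 27.8% of all tested genes. Shfm1, the gene of the small lid subunit SEM1, rose 3.45-fold (log2 1.79, SE 0.066, edgeR adjusted p = 1.54e-11), while Psmd6, a PCI subunit, fell (log2 -0.68) and Psmd7, the inactive MPN subunit of the lid, also fell (log2 -0.64). Psmd7 and Cops6 hold corresponding places and moved in opposite directions. Psmd14, which holds the protease site of the lid as Cops5 does that of the signalosome, did not pass (log2 -0.18, edgeR adjusted p = 0.0916). Of the 7 eIF3 subunits of PCI or MPN type other than the target, 3 were higher and 1 lower (median log2 0.07). This was 57.1% called, beside 27.8% of all tested genes. The subunit that fell was Eif3a (log2 -0.28, edgeR adjusted p = 5.71e-04), with log2 values between -0.36 and -0.25 over the 14 alternatives. Eif3h and Eif3e rose by 0.58 and 0.53 on the log2 scale, and Eif3c, the third, lost its call in 6 of 14 alternatives. Psmd8, the other lid subunit that rose, lost its call without si3m replicate 1 (adjusted p = 0.0528) or si3m replicate 2 (0.0730). In GRCr8 Uba3, Ube2m, Nedd8, Uchl3, Nub1, Glmn, Csnk2b, Rfwd2 (there named Cop1), Ddb1 and Psmd8 overlap a gene with its own row. Their counts are uncertain. No list was tested against another.

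**Figure D5:**
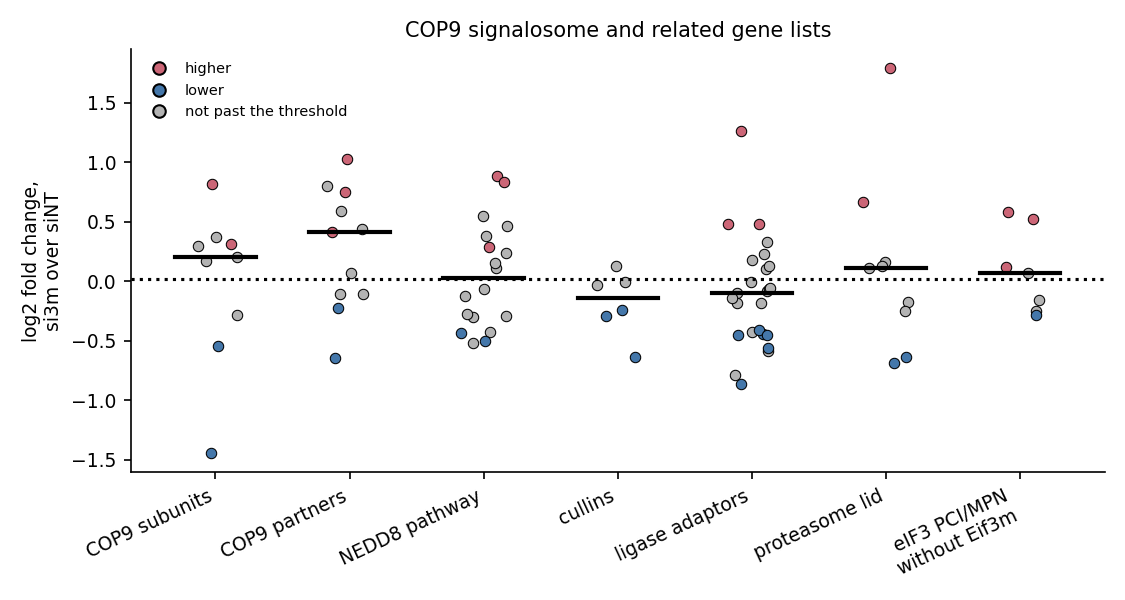
Log2 fold change, si3m over siNT, of each tested gene in the signalosome and in related lists, coloured by its call at an adjusted p under 0.05; thick lines are list medians and the dotted line is the median of all tested genes. Each list drawn except the cullins holds both genes called higher and genes called lower, and the lowest point drawn is Cops7b.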

How the data were processed

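The authors deposited whole-number read counts per gene, not normalized, 1 file per library. In the submitters' processing notes stand the build rn6 and the tools HISAT2 2.2.1, Trimmomatic 0.40, featureCounts, DESeq2 and limma. What each did is not stated, and the annotation, strandedness and handling of multi-mapped reads are likewise not given in these sources. Even numbers made up 94.9% to 97.3% of nonzero counts, a sign that fragments may be counted as 2 reads each, so intervals for counting error used counts divided by 2. Member counts ran from 46 to 2244. These intervals cover counting error only, since they are binomial, and reads carried no molecular identifiers by which duplicates could be removed. With halved counts, the median chi-square of the replicate pair was 1.40 times its counting-noise value in siNT and 1.48 times in si3m.

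Counts were tested in R 4.3.3 with edgeR 4.0.16, using filterByExpr with a minimum count of 10, then TMM, glmQLFit and the two-sided glmQLFTest, adjusted by Benjamini-Hochberg over 12672 genes. SE is the log2 fold change divided by the square root of the F statistic. Samples were grouped by their titles. On simulated counts for this comparison (12399 genes tested) the test found 25% of 60 genes given a 1.5-fold change, 76.5% of 68 given a 2-fold and 94.1% of 68 given a 4-fold change, and called 4 of 12203 unchanged genes. The common dispersion was 0.0109 and counts were not doubled.

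Alternatives were DESeq2 1.42.0 and its size factors, scaling by total count or upper quartile, no filter, 50 counts in 2 samples, robust quasi-likelihood, thinned counts, halved counts, a replicate block and leaving out each library. Named genes were all members, Eif3m, Cops9, up to 4 called genes with the smallest p from each related list, and the 3 genes nearest in profile to the member with the smallest p. Ube2f and Rfwd2 (the remaining called gene of their lists), Nedd8, Psmd14 and genes at 0 were named after their values were seen. So were the markers Atp2a2, Tnnt2, Pln, Ttn, Tnnc1, Fn1, Dcn and Pdgfra, and the uncalled Nae1, Rbx1, Senp8, Uchl3, Cand1, Cand2, Nub1 and Glmn. The members and lists were chosen with earlier results of these data known. Names, overlaps and promoters came from RefSeq tables of GRCr8, which is not the build of the files.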

Additional observations from a re-analysis of the deposited data

How the results depend on the processing

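Across 14 alternatives each of the 9 members kept the sign of its fold change. Cops2, Cops6 and Cops7b kept their calls in all 14 and Cops3 in 13. The number of members called lower was between 1 and 3 when a library was left out, 1 without si3m replicate 2, where Cops3 did not pass, and 3 without siNT replicate 1, where Cops8 did. The number called higher was 2 or 3, the added gene being Cops5. With counts thinned to the smallest library total Cops7b fell by 1.10 on the log2 scale, and the 4 calls held. The difference in the Cops7a to Cops7b ratio ranged from 1.499 to 1.74 on the log2 scale with a library left out and was 1.45 with thinned counts. Over all genes the replicate block gave 1851 higher and 1843 lower, with 2 and 2 members called as without it. Deviations of same-numbered libraries from their group means had a correlation of -0.02 across genes. Low-count genes enter it with equal weight, so it cannot settle whether those libraries shared a culture or day, which the labels do not state. Eif3m had an adjusted p of 0.0522 with robust quasi-likelihood in edgeR. Member genes with few counts limit what could be seen, Cops7a having as few as 23 fragments in a library.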

Other observations

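Textbook substrates of cullin ligases, whose stability the signalosome affects at the protein level, were called about as often as all tested genes. Of 19 tested, 4 were higher and 2 lower, 31.6% beside 27.8% of all tested genes (median log2 0.08). Ccnd1, the cyclin of early cell cycle entry, rose 1.46-fold (edgeR adjusted p = 4.51e-05, log2 0.54, SE 0.074). The small GTPase gene Rhoa rose 1.39-fold (log2 0.48, SE 0.055), and in GRCr8 it overlaps Tcta, which has its own row, so that its count is uncertain. Cdkn1b, which codes for the cyclin-dependent kinase inhibitor p27, fell 1.43-fold (log2 -0.52, SE 0.084), and Hif1a, the oxygen-regulated transcription factor, 1.24-fold (log2 -0.31, SE 0.058). Among 10 other tested genes with a PCI, MPN or JAMM domain none was higher (1 at an unadjusted edgeR p under 0.05, 0 in DESeq2) and 4 were lower. Over all tested genes 14.0% were higher and 13.9% lower. The 4 were led by the splicing factor Prpf8, which fell 1.80-fold (log2 -0.85, SE 0.051). Of the 4, only Prpf8 kept its call in all 14 alternatives.

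Of 7771 genes with a named symbol and at least 10 mean CPM, those nearest to Cops7b in profile over the 4 libraries, by Euclidean distance of centred log2 CPM, were Rab27a (distance 0.0974, log2 fold change -1.33), Tor4a (0.131, -1.53) and the microRNA gene Mir374b (0.132, -1.34). With 4 libraries in 2 groups, many genes that fell by a like amount are about as near.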
